A study of Mus musculus with 9 samples.

Results

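*Otx1*, *Otx2*, *En1*, *En2*, *Gbx2* and *Egr2* encode transcription factors that divide the embryonic head and hindbrain into regions along its length. They were chosen by name with earlier results known, namely their tissue differences on these same arrays, so those differences are given as a description. All 6 symbols were found among the 18120 symbols of the array, each with 1 probe, so that 6 of the 25697 probes are described here. The array annotation gives a chromosome for *En1* and *Gbx2*, both on chromosome 1.

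The RNA came from CD-1 mouse embryos at E10.5, for which no allele or treatment is named, and the study compared the otic vesicle with non-otic tissue of the same stage. The otic vesicle (OV) is the closed epithelial cup of head ectoderm from which the inner ear forms. The OV group held pools of dissected vesicles. The periotic tissue group held mesenchyme and dorsal hindbrain from around the vesicle. The embryo-minus-otic group, shortened to embryo group below, held whole embryos from which the larger otic region had been cut away, and so retained the forebrain and midbrain along with trunk, limbs and heart. Each group had 3 pools, and each of the 9 pools was hybridized to its own array. Every pool, those of OV included, mixes embryos and cell types, so fewer cells of a type and less RNA per cell cannot be told apart.

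*Otx1* and *Otx2* are homeobox genes of the forebrain and midbrain, and both are also known in the ventral and lateral wall of the OV. *Gbx2*, a homeobox gene of the anterior hindbrain, represses *Otx2* and is repressed by it, and the border between their domains becomes the midbrain-hindbrain boundary. *Gbx2* is also known in the dorsal OV, from which the endolymphatic duct grows. *En1* and *En2* are homeobox genes on both sides of that boundary. *Egr2*, a zinc finger gene also known as Krox-20, marks the third and the fifth rhombomere, which are segments of the hindbrain, and activates segmental *Hox* genes there.

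The genes fell into different tissue patterns. *Gbx2* was highest in OV, with a fold Δ of 4.57 over periotic tissue and 6.60 over the embryo group. *Otx1* was high in OV and in the embryo group and lay 11.6-fold and 10.49-fold lower, respectively, in the periotic group. *Otx2* and *En2* were highest in the embryo group, *Egr2* was above background in the periotic group alone, and *En1* was at or near background in all 3 groups.

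RefSeq promoter windows were at hand for 4 of the 6 genes (*Otx2*, *En1*, *Gbx2* and *Egr2*), with 11 windows in all. One window each is printed for *Gbx2*, *Otx2* and *Egr2*, because each of these genes was highest in a different tissue group. Each shows the 250 bases before a transcript start on build GRCm38.p6 in the direction of transcription, and capitals mark matches to the motifs searched. The *Otx2* window was chosen after the matches were seen.

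*Gbx2*, chr1:89931177-89931426, minus strand: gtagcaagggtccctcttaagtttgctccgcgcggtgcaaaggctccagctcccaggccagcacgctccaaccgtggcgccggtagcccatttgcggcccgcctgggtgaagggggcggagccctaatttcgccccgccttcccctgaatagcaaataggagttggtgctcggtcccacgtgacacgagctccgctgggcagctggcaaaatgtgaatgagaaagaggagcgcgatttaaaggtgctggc
*Otx2*, chr14:48665110-48665359, minus strand: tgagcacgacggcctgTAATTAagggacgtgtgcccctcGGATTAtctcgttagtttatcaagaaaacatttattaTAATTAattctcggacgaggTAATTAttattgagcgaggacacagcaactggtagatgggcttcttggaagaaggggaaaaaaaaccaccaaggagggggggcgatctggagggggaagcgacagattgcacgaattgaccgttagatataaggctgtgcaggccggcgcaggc
*Egr2*, chr10:67537619-67537868, plus strand: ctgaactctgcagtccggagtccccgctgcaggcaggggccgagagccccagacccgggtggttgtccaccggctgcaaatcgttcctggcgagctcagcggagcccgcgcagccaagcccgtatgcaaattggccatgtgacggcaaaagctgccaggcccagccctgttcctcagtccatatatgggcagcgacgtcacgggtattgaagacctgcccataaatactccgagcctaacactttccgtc

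Both strands were searched for 4 motifs. TAATCC, which reads GGATTA on the opposite strand, is a core bound by Otx-type homeodomains. The palindrome TAATTA is a core bound by homeodomains of the En and Gbx type. The Egr zinc fingers bind GCGTGGGCG and, as a variant of it, GCGGGGGCG. No match overlaps another in the printed windows. TAATCC lies in 6.25% and TAATTA in 4.84% of the 32851 RefSeq windows of the same length. The Egr motifs lie in 0.536% and 2.57% of them. The printed *Otx2* window holds TAATTA at 234, 174 and 154 bases before the start and GGATTA at 211 bases before it. Of the 4 windows of *Otx2*, 2 held a match, the other at 141 bases before its start. The 5 windows of *Egr2*, the 1 of *Gbx2* and the 1 of *En1* held none. Some windows of *Otx2* and some of *Egr2* overlap, so the windows of a gene are not all separate sequence. GC content was 61.6% in the *Gbx2* window, 56.0% in that of *En1* and between 54.0% and 71.2% in those of *Egr2*. It lay between 42.0% and 53.6% in those of *Otx2*, against a median of 52.4% over all windows. These matches are descriptions of letters only.

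The deposited value of a probe is its intensity on one array, not normalized between arrays, together with a detection p-value from the array's negative controls. A probe was taken as above background at a detection p under 0.01. Between 43.9% and 47.3% of probes passed on each array, and median intensities lay between 59.1 and 85.8. The log2 intensities of the 9 arrays were quantile normalized together, and all differences below are on this scale. Fold Δ is the ratio that corresponds to the difference between group means of log2 normalized intensity, with its direction given in words. Where a gene was above background on no array of the dimmer group, fold Δ is a bound, written "at least". It sets the brighter mean against a floor, which on each dim array is the dimmest value above background, or the probe itself where that is brighter. The precision of every mean is limited by the 3 arrays behind it. Levels of different probes are not compared, since their brightness per transcript differs.

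Marker lists were summed on each array. The 7 measured otic epithelium markers summed to between 5700 and 6360 units of normalized intensity in OV, against 717 to 867 in the periotic group and 923 to 1000 in the embryo group. *Oc90*, which encodes an otolith protein, was above background on no periotic array. *Hmx3* was below background in all groups. The 12 neural tube markers summed to between 5100 and 5890 in the periotic group. They summed to 2760 to 3570 in the embryo group and 1430 to 1660 in OV. Of the 12, 8 were above background on no OV array, 5 on no periotic array and 6 on no embryo array. The 5 of the periotic group were above background on no array of any group. The sums of the 10 mesenchyme markers ran from 1760 to 1970 in OV, from 2040 to 2450 in the periotic group and from 4490 to 5280 in the embryo group. The 5 measured markers of neural crest and glia gave 1000 to 1050, 1670 to 1720 and 1730 to 1880, in the same order. Liver markers summed to 236 to 259, 234 to 278 and 512 to 657. Of the 4 forebrain markers, *Six3*, *Emx2* and *Lhx2* were above background on no array of OV or periotic tissue. In the embryo group *Lhx2* was above background on all 3 arrays, *Six3* on 1 and *Emx2* on none. The remaining marker is not reported here, so these 3 do not stand for the list in any group.

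OV array 1 stood apart in genes of the rest of the embryo. Its heart muscle sum was 400.5, against 235.2 and 223.5 on OV arrays 2 and 3, 217 to 236 in the periotic group and 3460 to 3870 in the embryo group. The heart muscle genes *Actc1* and *Nppa* were above background on OV array 1 and not on the other OV arrays, while *Myh6* and *Myh7* were below background on all 3. Of 152 probes above background on every embryo array and on no periotic array, 19 were above background on OV array 1 alone, against 6 on array 2 alone and 2 on array 3 alone. The blood sum also differed among OV arrays, at 24520 on array 1, 17960 on array 2 and 9929 on array 3. It lay between 39900 and 42900 in the periotic group and between 47300 and 52900 in the embryo group.

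**Figure D1:**
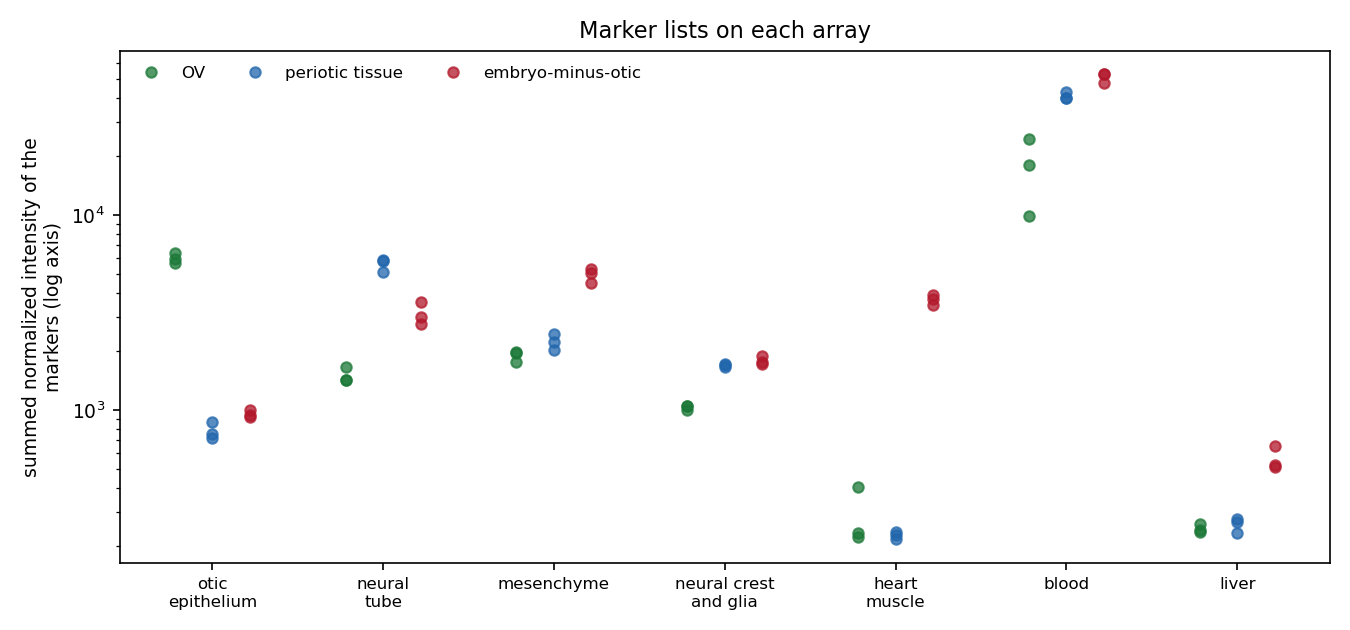
Summed normalized intensity of 7 marker lists on a log axis, with 1 point per array and 3 arrays per tissue group. Otic epithelium sums are highest in OV (5700 to 6360), neural tube sums in the periotic group (5100 to 5890) and heart muscle sums in the embryo group (3460 to 3870), with OV array 1 at 400.5 above the other OV arrays.

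*Gbx2* was bright on all 9 arrays. In OV the deposited intensities were 5145, 4495 and 4698 on arrays 1, 2 and 3. In the periotic group they were 989.6, 1268 and 1064, and in the embryo group 703.4, 830.7 and 582.0. After normalization the OV arrays lay at 12.13, 12.17 and 12.41, the periotic arrays at 10.07, 10.20 and 9.87, and the embryo arrays at 9.61, 9.46 and 9.47. No group overlapped another, and on the OV arrays the probe lay between the 98.9 and the 99.2 percentile of all probes. Group means were 12.24 ± 0.15 in OV, 10.05 ± 0.16 in the periotic group and 9.52 ± 0.086 in the embryo group (SD, n = 3 each).

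The difference for *Gbx2* between OV and the embryo group was 2.72 on the log2 scale (SE 0.105), at rank 11 from the top of all probes. Against periotic tissue it was 2.19 (SE 0.105), at rank 54. Periotic tissue in turn exceeded the embryo group by 0.53 (SE 0.105), a fold Δ of 1.44. The order was therefore OV, periotic tissue, embryo group, and each step was larger than the spread within either neighbour.

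*Gbx1*, the closest relative of *Gbx2*, did not share this order. It was above background on all 3 periotic arrays and on no other array. It was at least 1.15-fold higher in the periotic group than in OV (limma, *q* = 1.61e-04) and at least 1.14-fold higher than in the embryo group (limma, *q* = 0.00125).

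*Otx1* was high in OV and in the embryo group and low in the periotic group. Deposited intensities were 749.6, 1561 and 722.2 in OV and 818.5, 949.4 and 702.5 in the embryo group. In the periotic group they were 61.85, 81.07 and 106.4, and the first of these was not above background. Periotic tissue thus lay below every array of both other groups, whose ranges overlapped.

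Normalized means for *Otx1* were 9.89 ± 0.66 in OV, 9.74 ± 0.089 in the embryo group and 6.35 ± 0.31 in the periotic group (SD, n = 3 each). OV exceeded periotic tissue by 3.54 (SE 0.234), at rank 6 from the top of all probes. Periotic tissue lay below the embryo group (log2 difference -3.39, SE 0.234), at rank 17 from the bottom. OV and the embryo group, the neighbours at the top of the order, differed by 0.15 (SE 0.234), which is within their spread. With neqc, which subtracts a background before normalization, the fold Δ against periotic tissue rose to 22.2 for OV and 20.0 for the embryo group.

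The wide spread of *Otx1* in OV came from 1 array. The normalized values were 9.39, 10.64 and 9.63, so that OV array 2 lay 1.12 above the mean of the other OV arrays, or 2.18-fold. Of 11849 probes above background throughout 1 group or more, 5 lay as far above on that array, *Otx1* included. In deposited intensity, *Zfp291*, *2510048K03Rik* and *Ap3b2* among the others were also brightest on array 2 in both non-otic groups. On that scale *Otx1* was brightest on array 2 in the embryo group (818.5, 949.4 and 702.5) but not in the periotic group (61.85, 81.07 and 106.4). After normalization its values were 9.83, 9.65 and 9.74 in the embryo group and 6.08, 6.27 and 6.69 in the periotic group. Without OV array 2 the difference from periotic tissue was 3.16 and that from the embryo group turned from 0.15 to -0.23.

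*Otx2* had a different order from *Otx1*. The embryo arrays were high, with deposited intensities of 552.9, 749.8 and 577.5. In OV they were 132.7, 157.0 and 77.45, and in the periotic group 120.4, 200.2 and 157.8. The probe was above background on all 9 arrays, and OV and periotic tissue overlapped while both lay below every embryo array.

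The *Otx2* means were 9.34 ± 0.12 in the embryo group, 7.26 ± 0.24 in the periotic group and 6.91 ± 0.48 in OV (SD, n = 3 each). OV lay below the embryo group (log2 difference -2.43, SE 0.182, fold Δ 5.39), and so did periotic tissue (log2 difference -2.07, SE 0.182, fold Δ 4.21). They were at ranks 39 and 44 from the bottom of all probes. The OV arrays again differed, at 6.95, 7.36 and 6.41. Array 2 stood 0.68 above the mean of the other OV arrays, and array 3 stood at -0.75 from it. OV minus periotic tissue was -0.36 (SE 0.182), with -0.58 without OV array 2 and -0.11 without OV array 3.

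The other genes of the family added little signal. *Crx*, an Otx-type gene of photoreceptors and the pineal gland, was above background on no array. *Dmbx1*, a paired-type homeobox gene of the midbrain, was below background throughout, and no fold Δ is given for it.

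**Figure D2:**
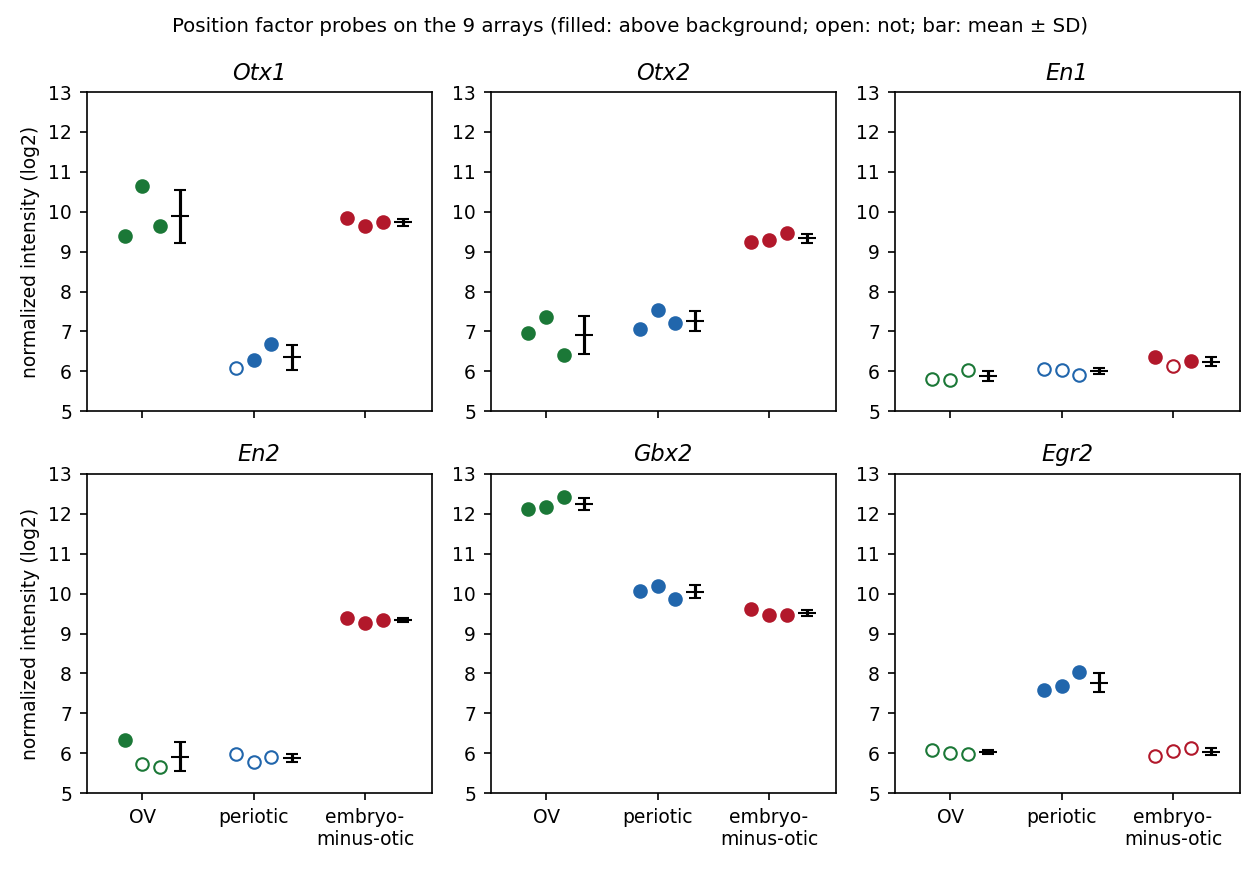
Normalized log2 probe intensity of the 6 genes on each of the 9 arrays, by tissue group, with open symbols for arrays where the probe was not above background and black bars for the group mean ± SD. *Gbx2* separates all 3 groups, *Otx1* is low in the periotic group (6.35), *Otx2* and *En2* are high in the embryo group (9.34 and 9.33), and *Egr2* is raised in the periotic group (7.77).

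*En2* was high in the embryo group alone. Its deposited intensities there were 602.4, 735.1 and 538.7. They were 84.24, 50.12 and 48.64 in OV and 58.13, 56.76 and 56.88 in the periotic group, where no array was above background. In OV, array 1 was above background and arrays 2 and 3 were not.

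*En2* means were 9.33 ± 0.054 in the embryo group, 5.91 ± 0.36 in OV and 5.89 ± 0.099 in the periotic group (SD, n = 3 each). The embryo group was at least 8.89-fold higher than periotic tissue (log2 difference of periotic tissue -3.44, SE 0.138). It was 10.7-fold higher than OV (log2 difference of OV -3.42, SE 0.138). Both differences stood at rank 16 from the bottom of all probes. OV and periotic tissue overlapped and differed by 0.02 (SE 0.138).

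The *En2* signal on OV array 1 (normalized 6.33, against 5.74 and 5.67) was 1.54-fold above the mean of the other OV arrays. This is the array on which *Actc1* and *Nppa* were also above background. The part of heart muscle or other embryo RNA in the *En2* value was not tested. Without the array, the OV difference was -3.62 from the embryo group and -0.19 from periotic tissue. With neqc the embryo group was 24.2-fold above OV and 26.9-fold above periotic tissue, as fitted values.

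*En1* gave almost no signal. Deposited intensities were 58.68, 51.93 and 60.85 in OV, 61.31, 68.27 and 57.65 in the periotic group, and 97.9, 76.08 and 66.76 in the embryo group. At a detection p under 0.01, 2 embryo arrays and no others were above background. Means were 5.88 ± 0.13, 6.01 ± 0.083 and 6.24 ± 0.11 (SD, n = 3 each), in the same order. The embryo group was at least 1.03-fold higher than OV and at least 1.04-fold higher than periotic tissue, and OV against periotic tissue was below background on both sides. Values this near background set no level for the gene.

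*Egr2* was above background in the periotic group alone at a detection p under 0.01. Deposited intensities were 175.8, 223.2 and 291.7 on the periotic arrays, 70.14, 60.23 and 59.29 in OV and 79.95, 71.26 and 61.25 in the embryo group. The 6 arrays of OV and the embryo group were below background at that threshold, and at a detection p under 0.05 the probe passed on 1 OV array and 2 embryo arrays. The lowest periotic array was above the highest array of both other groups.

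*Egr2* means were 7.77 ± 0.24 in the periotic group, 6.04 ± 0.095 in the embryo group and 6.02 ± 0.051 in OV (SD, n = 3 each). Periotic tissue was at least 2.97-fold higher than OV and at least 2.94-fold higher than the embryo group. The fitted differences were 1.73 from the embryo group (SE 0.110), at rank 4 from the top of all probes, and -1.75 for OV minus periotic tissue (SE 0.110), at rank 87 from the bottom. With neqc the fitted fold Δ was 6.84 over OV and 6.65 over the embryo group, against 3.36 and 3.32 without it. The neural tube sum was also highest in the periotic group, and its part in these values was not tested.

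The relatives of *Egr2* differed in pattern. *Egr1*, an immediate early gene, was above background everywhere. Its mean was 6.80 ± 0.093 in OV, 8.08 ± 0.13 in the periotic group and 7.82 ± 0.093 in the embryo group (SD, n = 3 each). It was 2.43-fold lower in OV than in the periotic group (limma, *q* = 1.12e-07) and 2.02-fold lower than in the embryo group (limma, *q* = 1.8e-06). Periotic tissue and the embryo group differed 1.20-fold (limma, *q* = 0.14). *Egr3* and *Egr4* were above background on no array.

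**Figure D3:**
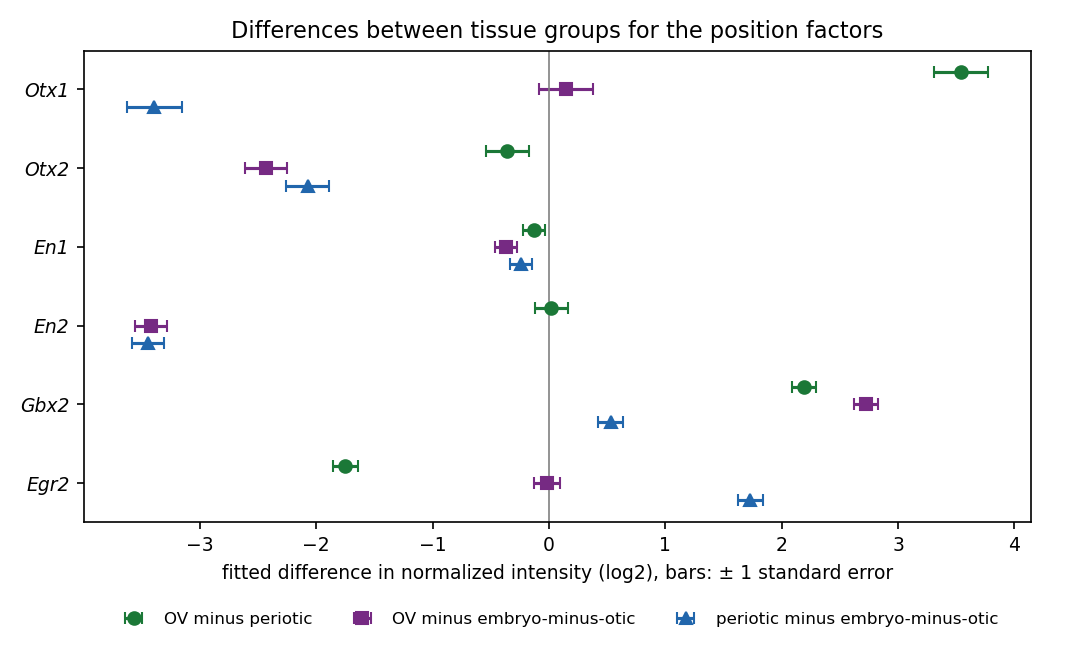
Fitted log2 differences between tissue groups for the 6 genes, with standard errors from the limma fit. *Gbx2* is positive in all 3 comparisons (2.19, 2.72 and 0.53), *Otx1* differs little between OV and the embryo group (0.15), and of the 6 genes *Egr2* has the largest rise from the embryo group to the periotic group (1.73).

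In counts, 2 of the 6 genes were called higher and 1 lower in OV than in the periotic group at *q* under 0.05 in the limma fit, where 5.07% of all probes were called higher and 5.15% lower, together 10.2%. Against the embryo group, 1 was called higher and 3 lower in OV (5.89% and 5.51% of all probes, together 11.4%). One of these 3 is *En1*, whose call was lost with median or no normalization, at *q* under 0.01, and without embryo array 1 or 3 or OV array 1 or 2. Between periotic tissue and the embryo group, 2 were called higher and 3 lower (2.86% and 2.95%, or 5.81% in either direction). The genes were chosen from these arrays, so the counts are descriptive. The median differences over the 6 were -0.055, -0.19 and -1.16, in the same order, and over all probes 0.00, 0.0043 and 0.0066. Arrays did not overlap for 2 genes higher and 1 lower in OV than in the periotic group, where 12.3% of probes lay higher and 12.8% lower without overlap (25.1% together). For OV and the embryo group they did not overlap for 1 higher and 3 lower (13.1% and 11.8%, 24.9% together), and for periotic tissue and that group for 2 higher and 4 lower (10.6% and 9.19%, 19.8% together). Of the 6 genes, 5 were above background throughout 1 group or more, as were 46.1% of all probes. *En1* was not, but at a detection p under 0.05 it passed on all 3 embryo arrays.

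The pattern of each gene over the 9 arrays was compared with all other probes above background on all arrays of 1 group by Pearson correlation, as a description without a test, since the arrays fall into 3 tissue groups. For *Gbx2* the most alike were *Klhl8* (r = 0.9947), *Lmx1a* (0.9936) and *Tbx1* (0.9916), of which *Lmx1a* and *Tbx1* encode transcription factors that pattern the OV. For *En2* they were *Hoxb5* (0.9993), *Tnc* (0.9981) and *Myl1* (0.9972), genes of the trunk, matrix and muscle. *Otx2* was most like *D030013I16Rik* (0.9892), *Pdlim5* (0.9891) and *Scarf2* (0.9874). *Egr2* was most like *BC065085* (0.9886), *Nkx2-9* (0.9801) and *Kif1b* (0.9788). *Otx1* was most like *4930422J18Rik*, annotated as *Spsb1* (0.9866), *Rplp1* (0.9775) and *Rhod* (0.974). *Rplp1* moved by far less, with means of 15.04 in OV and 14.96 in the periotic group. *En1* was too dim to be compared.

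Genes that act with these factors at the midbrain-hindbrain boundary were taken from a list of 15 signalling molecules and transcription factors, all measured, of which 8 were above background throughout 1 group or more. In OV against periotic tissue 6 were called higher and 2 lower. In OV against the embryo group 3 were called higher and 3 lower, and in the periotic group against the embryo group 2 were called higher and 3 lower. *Fgf8* and *Fgf17*, the ligands of the boundary organizer, lay highest in the embryo group. *Fgf8* was 3.22-fold lower in OV and *Fgf17* 2.35-fold lower in OV than there. In the periotic group, where neither was above background, the embryo group was at least 4.10-fold higher for *Fgf8* and at least 4.14-fold higher for *Fgf17*. *Wnt1*, the midbrain ligand next to them, was highest in the periotic group, 1.82-fold above the embryo group and at least 1.76-fold above OV. In the embryo group *Wnt1* was above background on only 1 of the 3 arrays. *Sp8* was 1.48-fold lower in OV and 1.35-fold lower in the embryo group than in the periotic group. *Pax8*, a paired box gene of both boundary and ear, was at least 1.84-fold higher in OV than in the periotic group and at least 1.80-fold higher than in the embryo group. *Fgf17* was at least 1.76-fold higher in OV than in the periotic group, and *Pax2* in OV stood at least 1.04-fold above the embryo group. The median differences of the list were 0.09, -0.04 and -0.04.

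Of 24 forebrain and midbrain genes 21 were measured, 11 of them above background throughout 1 group or more. None was called higher in the periotic group than in the embryo group at *q* under 0.05 (limma, with 1 at an unadjusted p under 0.05), and 11 were called lower, with a median of -0.37. In OV against the embryo group 1 was called higher and 8 lower (median -0.23). In OV against periotic tissue 3 were called higher and 2 lower (median 0.04). *Dmrta2*, a gene of the cortical midline, lay 3.85-fold lower in OV and 4.76-fold lower in the periotic group than in the embryo group. *Nkx2-1*, listed on the array as *Titf1* and a gene of ventral forebrain, thyroid and lung, was at least 2.55-fold higher in the embryo group than in OV. *Lhx5*, a LIM homeobox gene, was at least 1.71-fold lower in OV than in the periotic group, and the orphan receptor gene *Nr2f1* differed by -0.58 on the log2 scale in the same comparison. *Dlx1* was 1.78-fold higher in OV than in the periotic group.

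Of 24 genes of hindbrain segmentation 23 were measured, 17 of them above background throughout 1 group or more. In OV, 13 were called lower than in the periotic group and none higher at *q* under 0.05 (limma, with 1 higher at an unadjusted p under 0.05, median -0.53). Against the embryo group 10 were called lower in OV and 1, the Eph receptor gene *Epha7*, higher by 2.22-fold (median -0.11). In the periotic group 8 were called higher and 4 lower than in the embryo group (median 0.17). *Hoxa2* and *Hoxb2*, known targets of Egr2, were 3.39-fold and 3.21-fold higher in the periotic group than in the embryo group, and *Hoxb2* was 10.8-fold lower in OV than in the periotic group. *Hoxb1*, a gene of the fourth rhombomere, was at least 5.73-fold lower in OV than in the periotic group. *Epha4*, another target of Egr2, was not called, with means of 6.42 ± 0.091 in OV, 6.32 ± 0.11 in the periotic group and 6.32 ± 0.22 in the embryo group (SD, n = 3 each). The corepressor gene *Nab1* was called higher in the periotic group, by 1.48-fold over OV, and *Nab2* was below background throughout. *Hoxd4* and *Hoxb4*, which belong to the caudal hindbrain and trunk, lay 14.2-fold and 10.4-fold lower in OV than in the embryo group. Each was above background on only 1 of the 3 OV arrays, so these OV means lie near background. Periotic tissue lay 4.11-fold and 2.47-fold below the embryo group for the same genes.

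Of 18 otic patterning genes 16 were measured and 12 were above background throughout 1 group or more. In OV, 12 of the 16 were called higher than in the periotic group and 12 higher than in the embryo group, with none lower in either comparison at *q* under 0.05 (limma, and 0 at an unadjusted p under 0.05). The list medians were 1.26 and 0.93. *Lmx1a*, a homeobox gene of the dorsal OV, stood 3.46 above periotic tissue on the log2 scale and 15.6-fold above the embryo group. It was above background on only 1 of the 3 embryo arrays, so its embryo mean lies near background. In OV, *Fgf10* was 10.02-fold higher than in the periotic group. *Gata3*, needed for ear and nerve, was 7.29-fold higher than in the embryo group. Between periotic tissue and the embryo group 1 was called higher and 3 lower (median -0.07), among them *Fgf10* (2.10-fold) and *Bmp4* (1.86-fold). *Lmx1a* was 1.41-fold higher in the periotic group than in the embryo group. The 6 relatives of the members had 0 called higher and 2 lower in OV against each other group (limma, and 0 higher and 2 lower at an unadjusted p under 0.05), and 1 higher and 1 lower in the periotic group against the embryo group. *Egr1* was lower in OV in both comparisons, *Gbx1* lower against periotic tissue, and *Dmbx1* lower against the embryo group with all arrays below background.

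**Figure D4:**
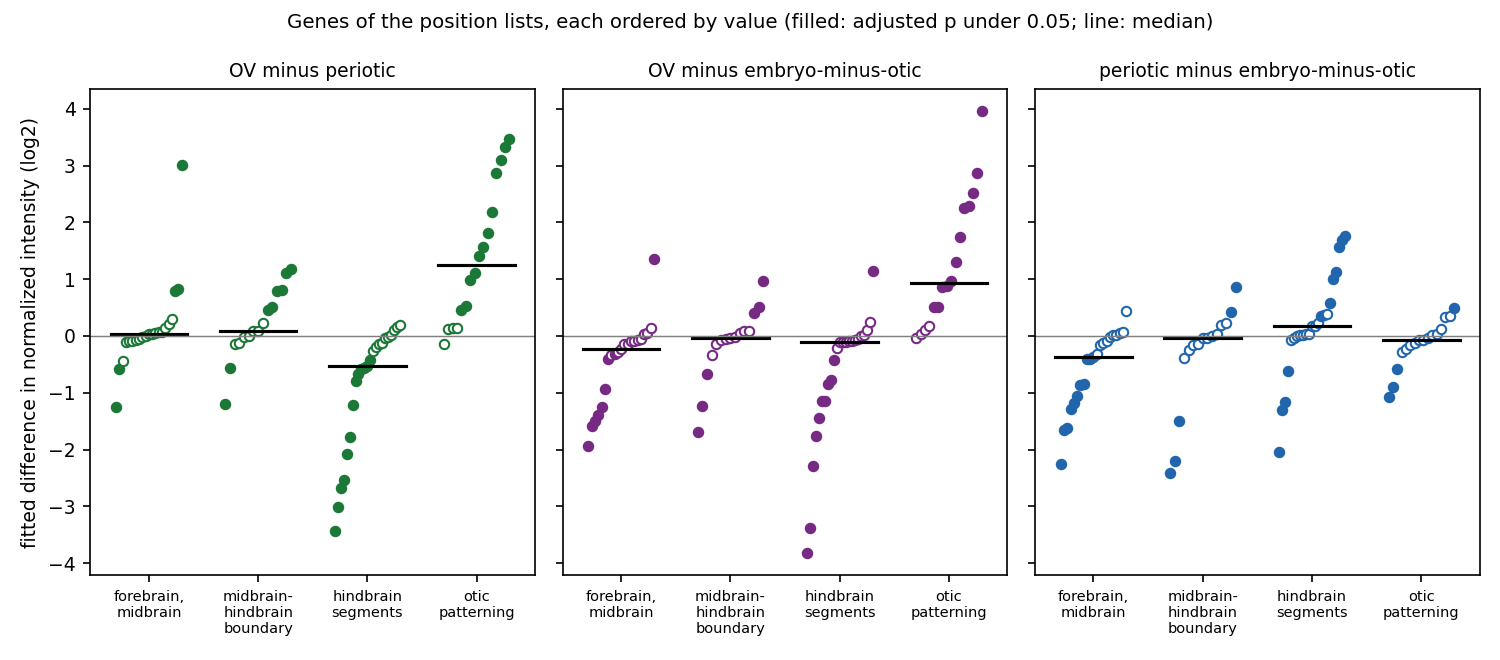
Fitted log2 differences of the genes of 4 position lists in each comparison, ordered by value within a list, with filled points at adjusted p under 0.05 and a line at the median. The otic patterning medians lie above 0 in OV (1.26 and 0.93), the hindbrain segment median lies below 0 in OV against periotic tissue (-0.53), and the forebrain and midbrain median lies below 0 in the periotic group against the embryo group (-0.37).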

How the data were processed

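RNA from the 9 pools was measured on 1-colour MouseRef-8 v2.0 arrays. The deposited table holds a GenomeStudio average intensity, not normalized between arrays, and a detection p-value per probe. Whether background was subtracted is not given in the sources used here, and the number of beads, slide and scan were not analysed here. No value lay below the floor of 1. The methods name 3 litters for the 9 pools, so pools of different tissues can share a litter.

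After log2 transformation the arrays were quantile normalized together. A linear model of the 3 groups was fitted to all 25697 probes with limma 3.58.1 in R 4.3.3 (lmFit and eBayes), with Benjamini-Hochberg adjustment over all probes of a comparison (*q*). Tables and figures were made in Python 3.11.15 with pandas 2.3.3. The steps were tested on simulated data. The members, the gene lists and the marker lists were chosen with earlier results of these data known, so no p is given for a member. Lists covered the midbrain-hindbrain boundary, forebrain and midbrain, hindbrain segments, otic patterning, relatives of the members, and markers of otic epithelium, neural tube, mesenchyme, neural crest and glia, heart muscle, blood, liver and forebrain. A gene with several probes was represented by its brightest. *Emx1*, *Fezf1*, *Barhl2*, *Cyp26c1*, *Dlx6* and *Sox10* had no matching symbol. *Cnpy1* and *Nkx2-1* were matched by a synonym. Some genes covered by the lists or by the rule for named genes are not reported here by name, nor is the summed forebrain marker level.

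Named genes were the 6 members, the 3 symbols most alike in pattern to each and, of each list, the 2 genes with the largest called difference in each direction and all relatives. A few others, such as *Epha4*, the *Nab* genes and the genes of OV arrays 1 and 2, were named after their values were seen. Promoter windows came from RefSeq. Alternatives were neqc (offset 16), median or no normalization, only probes above background, array weights, a replicate block, fits of the compared groups alone, a prior with an intensity trend, every probe counted, detection p under 0.05, *q* under 0.01, and each array left out. Replicate numbers were not taken to pair the samples, because the rule used, a correlation over 0.1 for every same-numbered pair, was not met. That does not show that the arrays are unpaired.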

Additional observations from a re-analysis of the deposited data

How the results depend on the processing

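Of the counts of called genes among the 6, those lower in OV changed against both other groups. Genes lower in OV than in the periotic group numbered 1, and 2 without OV replicate 2, where *Otx2* was added. Leaving out each array in turn gave a range from 1 to 2. Genes lower in OV than in the embryo group numbered 3, and 2 where *En1* was lost or, with only probes above background fitted, not tested. The replicate number as a block changed no call of a member, with 2 higher and 1 lower in OV than in the periotic group, 1 higher and 3 lower in OV than in the embryo group, and 2 higher and 3 lower in the periotic group than there. Same-numbered arrays correlated between 0.0108 and 0.234 in their deviations, and 5 of 9 pairs exceeded 0.1. Of 18 comparisons of an array with another group, 15 gave the highest correlation with its own number, a hint from the data, not the design. Under the block the calls over all probes moved from 1302 to 1384 higher and from 1323 to 1406 lower in OV than in the periotic group, the other comparisons by less than 1.5 times.

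*En1*, OV minus the embryo group, was no longer called at *q* under 0.01, with median normalization (-0.34), with no normalization (-0.47), and without embryo-minus-otic replicates 1 and 3 or OV replicates 1 and 2 (-0.36 to -0.33). With neqc the fold Δ of *Otx1*, *En2* and *Egr2* rose by over 1.5 times, as given beside each, with no call or direction changed. The share of higher calls over all probes moved with median normalization from 51.6% to 68.7% for OV and from 49.3% to 72.0% for periotic tissue against the embryo group. Their calls lower fell from 1417 to 670 and from 757 to 315. With no normalization these shares were 42.5% and 46.7%, with calls higher falling from 1513 to 588 and from 736 to 325, and calls lower to 795 and 371. For OV against periotic tissue, 1302 higher and 1323 lower became 814 and 870 with median normalization and 620 and 761 with none. Without normalization, 5 hindbrain segment genes in place of 8 were called higher in the periotic group than in the embryo group. The cause of these shifts was not tested. Slide as a block was not run, because no slide was used here.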
